A study of Drosophila melanogaster with 6 samples.

Results

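Progenitor cells of the adult Drosophila midgut in which RNAi was directed against Rpn3, a lid subunit of the 26S proteasome, were compared gene by gene with control progenitors. A gene entered the comparison when it is protein-coding and reached 10 FPKM in at least 1 of the 2 libraries, where FPKM is the number of sequenced fragments of a gene, scaled to the length of its transcript and to all mapped fragments of the library. This rule took 5689 genes of the 15603 listed and of the 13715 protein-coding genes listed. Each gene is given by its FPKM in both libraries and ranked by log2 of the ratio of FPKM + 1, Rpn3RNAi to attP2. Of the 5689 genes, 4810 reached 10 FPKM in both libraries, 571 only in Rpn3RNAi and 308 only in attP2, and the genes that entered through a single library had to differ between them.

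The control library is named attP2, after the landing site of the RNAi transgene, and carries esgGal4ts over that background with no RNAi transgene. The Rpn3RNAi library carries esgGal4ts, the attP2 site and a single Rpn3 RNAi line. The driver is active in intestinal stem cells (ISCs) and their daughters, the enteroblasts (EBs), only at 29 °C. Both libraries came from flies 7 days old that had spent 4 days at 29 °C, and escargot-positive cells were sorted from pooled guts of about 100 females, 62921 cells for attP2 and 34986 for Rpn3RNAi. The other 4 libraries, w1118 (esgGal4ts alone), HttQ138, CncCRNAi and the combination of the last 2, came from flies kept at 29 °C for 2 days. They serve here to show where a level lies outside the pair. There is 1 library a group, so no difference has a replicate check and no p-value is given, and differences between pools of flies, between sorts and between genotypes cannot be told apart.

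The proteasome degrades proteins tagged with ubiquitin, and its 19S lid and base recognise, unfold and feed them into a 20S core where they are cut. Animal cells answer a shortage of proteasome activity with higher transcription of proteasome genes, a response carried in flies by the CncC transcription factor. ISCs of the fly midgut divide to replace enterocytes, the absorptive cells that secrete digestive enzymes, and enteroendocrine cells, and they rely on glycolysis as well as on mitochondrial oxidation. Ribosomes, tRNA synthetases, nucleotide synthesis and the TOR and Myc pathways set how fast such cells can grow.

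Rpn3 itself (FBgn0261396) stood at 77.1 FPKM in attP2 and at 63.2 in Rpn3RNAi, 1.22-fold lower with a 95% interval for counting error of 1.05 to 1.42. In the remaining libraries Rpn3 lay at 45.5 FPKM in w1118, 71.0 in HttQ138, 37.7 in CncCRNAi and 33.1 in CncCRNAi+HttQ138. The targeted transcript was thus slightly below its own control and above 3 of the other 4 libraries, while a value per gene cannot separate transcripts of the gene from fragments of the RNAi hairpin. Low FPKM values lie at multiples of what 1 fragment is worth, and their spacing gave an estimated 3587659 fragments for attP2 and 2792675 for Rpn3RNAi. The intervals on ratios below are exact binomial intervals on these estimated fragments and cover counting error only, and the folds beside them are ratios of FPKM itself.

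At a 2-fold difference of FPKM + 1, 501 genes were higher in Rpn3RNAi (8.81% of the 5689) and 287 were lower (5.04%). At 3-fold, the fold used by the study, 344 were higher (6.05%) and 67 lower (1.18%). The remaining 4901 genes differed by less than 2-fold. The higher genes were mostly genes that attP2 hardly contained, with a median of 5.99 FPKM in attP2 and 40.6 in Rpn3RNAi, whereas the lower genes were well expressed in attP2, with a median of 50.2 FPKM there and 19.4 in Rpn3RNAi. Among the genes at 10 FPKM or more in both libraries, 170 were higher and 201 lower. The counting interval excluded equality for 471 of the 501 higher and 279 of the 287 lower genes. These genes were chosen by the same values, so the intervals give no separate support. No interval was computed for the 18 higher genes listed at 0 in attP2 or the 4 lower genes listed at 0 in Rpn3RNAi. Over all 5689 genes the median log2 ratio was -0.11, and when Rpn3RNAi was rescaled to the same sum over protein-coding genes, a shift of 0.14 on the log2 scale, the counts became 587 higher and 191 lower, with 75.4% of the called genes on the higher side instead of 63.6%. A rise or fall below means a difference of at least 2-fold in FPKM + 1, as deposited, between these 2 libraries. A gene under 10 FPKM in 1 of them entered only through the other, so the floor fixed its direction.

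The ratio also depended on how strongly a gene is expressed, which is of weight for genes of metabolism and growth. Grouped by mean FPKM over the 6 libraries, the median log2 ratio was -0.04 for the 2636 genes between 10 and 30 FPKM, -0.20 for 1768 genes between 30 and 100, -0.33 for 534 genes between 100 and 300, -0.42 for 133 genes between 300 and 1000, and -0.29 for 107 genes above 1000, of which 79 encode cytosolic ribosomal proteins. Below 10 FPKM the sign turned, with a median of 0.56 for 511 genes, which could enter only through a library at 10 FPKM or more. A list of abundant genes is therefore read beside these medians as well as beside -0.11. Transcript length had a smaller part, with medians of -0.13 for genes from 500 to 1000 nucleotides and -0.08 for genes from 1000 to 2000.

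**Figure D1:**
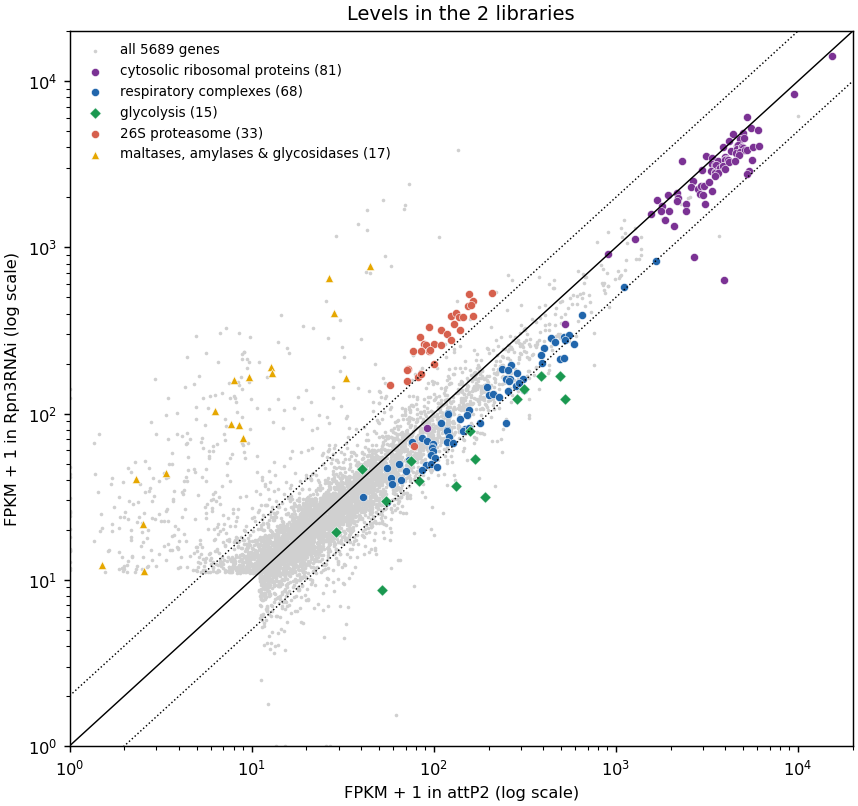
FPKM + 1 in attP2 (x axis, log scale) and in Rpn3RNAi (y axis, log scale) for all 5689 genes, with 5 gene lists in colour; the solid line marks equal levels and the dotted lines a 2-fold difference. The 17 glycosidases lie above the upper dotted line and so do 31 of the 33 proteasome subunits, the 68 respiratory subunits lie below the solid line as a band, and 11 of the 15 glycolytic genes fall below the lower dotted line.

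Among proteostasis genes, nearly every proteasome subunit rose except the targeted one. Of 33 subunits 31 were at least 2-fold higher, with a median log2 ratio of 1.38. Rpn8, a partner of Rpn3 in the lid, lay just under the fold used, at 99.4 FPKM in attP2 and 199 in Rpn3RNAi, and Rpn3 was the only subunit that was lower. The subunits together took up 0.544% of all protein-coding FPKM in attP2 and 1.60% in Rpn3RNAi. Around the particle, 11 of 26 genes of assembly, activation and ubiquitin supply rose and 1 fell. Pomp, which helps to assemble the 20S core, rose from 52.9 to 152 FPKM (2.88-fold, 2.40 to 3.45), and TER94, the segregase that extracts ubiquitinated proteins, from 218 to 539 (2.47-fold, 2.35 to 2.60). The deubiquitinating enzymes of the 19S cap rose too, Usp14 from 84.9 to 258 FPKM and Uch-L5 from 25.1 to 58.1, as did the ubiquitin ligase Ube3a from 10.8 to 35.5. PSMG1, an assembly chaperone chosen after its values were seen, went from 13.9 to 80.6 FPKM. Rpt6R, a base subunit paralog, was listed at 0 in attP2 and w1118 and at 46.7 FPKM in Rpn3RNAi. The single fall was that of the ubiquitin-conjugating enzyme Ubc4, from 29.2 to 13.9 FPKM.

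Other arms of protein quality control moved in few genes against attP2. Of 29 cytosolic chaperones 4 rose and none fell, beside 8.81% and 5.04% of all genes. Against w1118, 13 of the 29 were at least 2-fold higher in Rpn3RNAi, with a median of 0.61, beside 11.7% of all genes. In attP2 itself 4 of the 29 were at least 2-fold above w1118, with a median of 0.39. The small heat shock protein Hsp23 went from 134 to 472 FPKM, but stood at 616 in CncCRNAi, so that its level in Rpn3RNAi was not outside those of the series. The co-chaperone DnaJ-H rose from 20.5 to 78.6 FPKM, above its range of 16.8 to 27.4 in the other 4 libraries. Hsp83, the fly Hsp90, stood at 459 FPKM in attP2 against 569 in Rpn3RNAi, and the near-identical copies Hsp70Aa and Hsp70Ab, whose fragments cannot be separated, at 138 and 141 against 150 and 155. Of 24 autophagy genes 1 rose, ref(2)P, the fly p62 receptor that carries ubiquitinated cargo, from 267 to 637 FPKM (2.38-fold, 2.26 to 2.51). Atg8a, the membrane tag of the autophagosome, stood at 494 FPKM in attP2 against 284 in Rpn3RNAi. The 8 subunits of the TRiC folding chamber all lay within 2-fold, with a median log2 ratio of -0.35.

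Chaperones of the endoplasmic reticulum lay on the other side. Of 27 genes of ER folding 4 fell and none rose, with a median of -0.50. Hsc70-3, the fly BiP, fell from 755 to 194 FPKM (3.88-fold, 3.68 to 4.10), and the ER-resident growth factor Manf from 128 to 41.7. Gp93, the ER form of Hsp90, fell from 265 to 117 FPKM and P58IPK, a BiP co-chaperone, from 70.2 to 32.2. In w1118 these 4 genes stood at 331, 76.1, 137 and 46.9 FPKM, below attP2 in each case and above Rpn3RNAi. Against w1118 the list had a median of -0.08 and no gene past 2-fold.

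**Figure D2:**
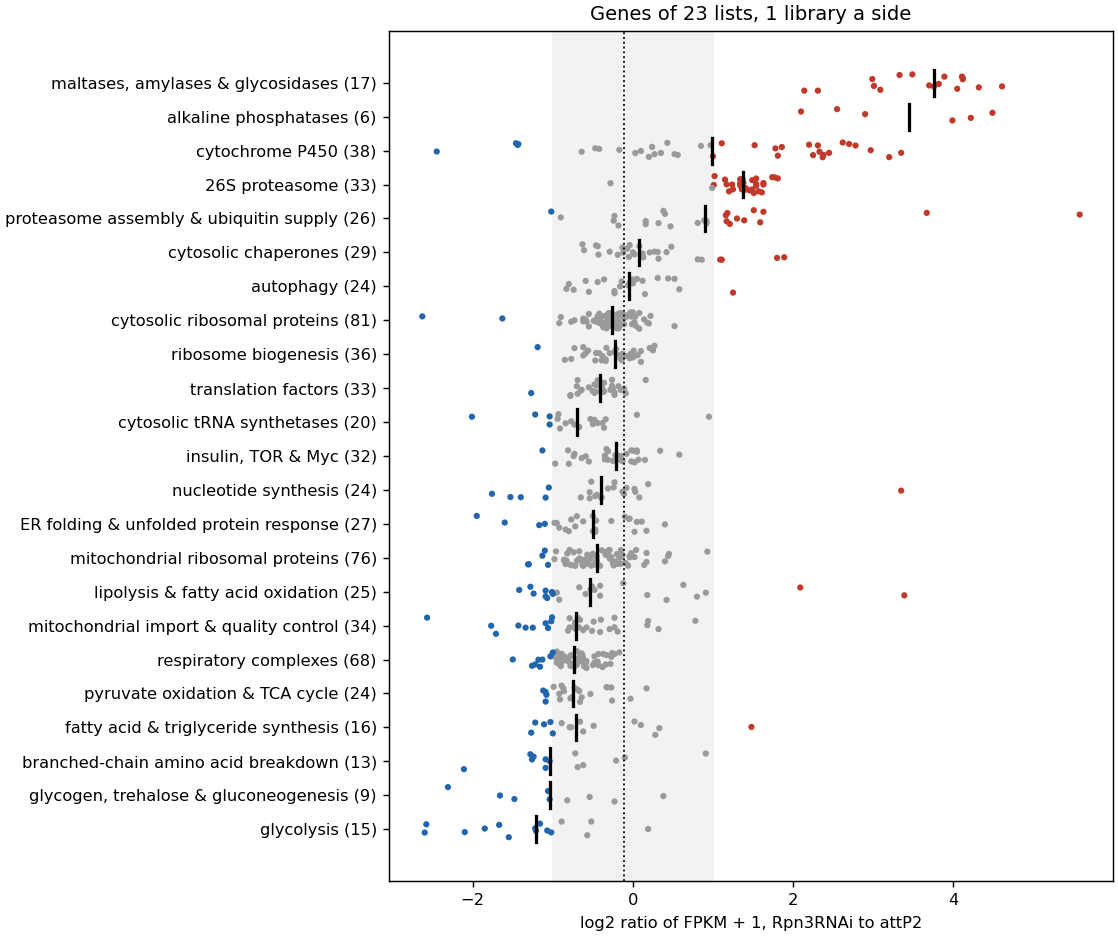
Log2 ratio of FPKM + 1 between Rpn3RNAi and attP2 (x axis) for every gene of 23 lists (y axis, number of genes in brackets); red points are at least 2-fold higher, blue points at least 2-fold lower, grey points less than 2-fold different, black bars are list medians and the dotted line is the median of all genes, -0.11. Medians run from 3.76 for the glycosidases to -1.21 for glycolysis.

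The largest rises were those of enzymes that digest food. All 17 maltases, amylases and other glycosidases that entered rose, 11 of them from under 10 FPKM in attP2, and 6 of 6 with at least 10 FPKM in both libraries. The amylase Amy-p, which cuts starch, went from 25.7 to 650 FPKM (25.3-fold, 21.2 to 30.2) and was at 51.0 or less in the other 4 libraries. The maltase Mal-A1 went from 43.5 to 768 FPKM, with 2.73 in w1118 and 65.1 in CncCRNAi. The lysosomal-type mannosidases LManV and LManVI rose from 6.98 to 158 and from 8.61 to 166 FPKM. Protease genes moved in the same direction. All 31 secreted serine proteases that entered rose, as did 14 of 16 other digestive proteases and peptidases. Of these, 11 and 10 were at 10 FPKM or more in both libraries, and 11 and 8 of them rose. The carboxypeptidase CG12374 went from 41.9 to 1668 FPKM and the aspartyl protease Bace from 68.2 to 1797 (26.4-fold, 23.4 to 29.8). Both were also elevated in HttQ138, at 539 and 397 FPKM.

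Genes of fat digestion and uptake followed with more exceptions. Of 18 lipases and sterol handling genes 11 rose and 1 fell. The triglyceride lipase CG6295 went from 53.1 to 890 FPKM (16.7-fold, 14.3 to 19.6), and magro (mag), a gut lipase, from 6.77 to 56.4. Npc1b, a sterol uptake protein of the gut, rose from 0.616 to 13.9 FPKM. Among the 6 genes of this list at 10 FPKM or more in both libraries, however, the median was -0.39. Farnesyl pyrophosphate synthase (Fpps), an enzyme of the isoprenoid pathway, fell from 30.9 to 8.52 FPKM. The cholesterol-binding Npc2a, a well-expressed relative of the uptake proteins, stood at 266 FPKM in attP2 against 174 in Rpn3RNAi.

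Genes of the gut surface and of uptake rose with the enzymes. Of 13 peritrophic matrix proteins, mucins and chitinases 11 rose, among them Muc68D from 7.24 to 117 FPKM. Of the 13, however, 10 entered only through Rpn3RNAi, and of the 3 at 10 FPKM in both libraries 1 rose, with a median of 0.38. Mur2B, a mucin-related gene, stood at 25.4 and 22.3 FPKM. Of 6 sugar transporters 4 rose, CG6484 from 1.37 to 28.3 FPKM most of all, and all 4 entered only through Rpn3RNAi. The trehalose transporter Tret1-1 was at 68.7 in attP2 and 38.4 in Rpn3RNAi. The 6 alkaline phosphatases that entered, brush border type enzymes gathered into a list after their values were seen, include 5 that entered only through Rpn3RNAi. They were higher there, Alp10 from 8.41 to 211 FPKM and Alp2 from 29.7 to 179, and the list's median was 3.45 with the floor and 1.34 without it. Vha100-5, a subunit of the vacuolar proton pump, rose from 7.90 to 140 FPKM, and Vha100-4, a gene of the same family listed here among the enterocyte markers, from 0.863 to 19.4. These were 2 of 3 rises among 33 lysosomal and proton pump genes, the third being the mannosidase LManII.

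Detoxification genes split. Of 38 cytochrome P450 genes that entered 18 rose and 4 fell, but 16 entered only through Rpn3RNAi, and of the 18 at 10 FPKM in both libraries 3 rose and 2 fell, with a median of 0.31. Cyp9b2 rose from 31.1 to 219 FPKM (7.04-fold, 5.98 to 8.37) and was at 23.6 or less in the other 4 libraries. Cyp6g1, known for insecticide resistance, rose from 4.82 to 58.2 FPKM. Cyp6a17, a neighbour in the same large family, fell from 100 to 17.6 FPKM, but its levels of 36.0 in w1118 and 11.6 in HttQ138 put Rpn3RNAi within the range of the series. Of 15 UDP-glycosyltransferases, which attach sugars to toxins, 4 rose and none fell, with 1 rise among the 11 at 10 FPKM in both libraries. The drug exporter Mdr49 went from 0.962 to 37.6 FPKM, with 3.10 or less in each of the other 4 libraries. Veil, an ecto-nucleotidase, was the only rise among 24 nucleotide genes, from 5.43 to 64.4 FPKM.

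Antioxidant genes moved in small numbers and in both directions. Of 29 genes of the CncC, glutathione and thioredoxin list 2 rose and 4 fell, beside 8.81% and 5.04% of all genes. The 2 that rose were Mdr49 and Gclc, the catalytic subunit that limits glutathione synthesis, from 43.2 to 135 FPKM. Catalase (Cat), which breaks down hydrogen peroxide, fell from 184 to 75.1 FPKM, and the mitochondrial peroxiredoxin Prx3 from 106 to 45.8. Prx2 fell from 430 to 194 FPKM, a level close to 186 in w1118. Of 25 glutathione S-transferases 4 rose and 3 fell, with GstD5 the largest rise at 20.1 against 117 FPKM and GstE12 the largest fall at 393 against 175. The metallothionein MtnA, which binds copper and cadmium, rose from 27.0 to 144 FPKM, although w1118 held 150 and HttQ138 354.

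Immune genes that rose included enzymes of the gut lumen. Of 17 effectors and recognition genes 8 rose and 1 fell, but 7 entered only through Rpn3RNAi, and of the 10 at 10 FPKM in both libraries 1 rose and 1 fell, with a median of -0.10. The amidase PGRP-SC2, which degrades peptidoglycan, went from 2.87 to 100 FPKM. The lysozyme LysD rose from 0.445 to 73.8 FPKM, but LysB, LysD and LysE, like PGRP-SC1a and PGRP-SC1b, are near copies and their division of fragments is uncertain. The single fall was that of PGRP-LB, also an amidase, from 331 to 162 FPKM.

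Glycolysis had the lowest median of the lists examined. Of 15 genes 11 fell and none rose, with a median log2 ratio of -1.21, and together they took up 0.442% of protein-coding FPKM in attP2 and 0.181% in Rpn3RNAi. Phosphofructokinase (Pfk), the committing step, fell from 50.7 to 7.62 FPKM (6.64-fold, 5.14 to 8.75), and lactate dehydrogenase (Ldh), which turns pyruvate into lactate, from 190 to 30.5 (6.24-fold, 5.07 to 7.73). The falls ran on through the later steps of the pathway. Gapdh2 fell from 524 to 121 FPKM, triose phosphate isomerase (Tpi) from 168 to 52.1, the mutase Pglym78 from 131 to 35.8 and enolase (Eno) from 494 to 168. Pyruvate kinase (PyK), the last step, fell from 313 to 139 FPKM and aldolase (Ald1) from 389 to 167. The entry enzyme hexokinase (Hex-A) stood at 73.6 and 51.0 FPKM, and Pfrx, which makes and removes the activator of Pfk, at 39.6 and 45.4.

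The attP2 library itself was high for glycolysis, and this bears on the size of these falls. In attP2 against w1118, 5 of the 15 genes were at least 2-fold higher and none lower, with a median of 0.93. Pfk stood at 16.3 FPKM in w1118, Gapdh2 at 227, Tpi at 75.5, Eno at 215 and PyK at 174, each between the values of Rpn3RNAi and attP2. Against w1118 the 15 genes had a median of -0.53 in Rpn3RNAi and only Pfk passed 2-fold. Rpn3RNAi was still the lowest of the 6 libraries for 13 of the 15 genes. For this count and those like it below, the share over all genes is not given, so these counts do not show that a list stands apart. Rpn3RNAi had the smallest sum over protein-coding genes, 612317 FPKM against 675382 to 759255 in the other libraries. It was also the lowest library for 27 of 33 translation factors and 70 of 81 cytosolic ribosomal proteins, but for only 3 of 24 autophagy genes. Ldh reached 277 FPKM in CncCRNAi and 261 in CncCRNAi+HttQ138, above attP2, and was at 52.5 in w1118 and 106 in HttQ138.

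**Figure D3:**
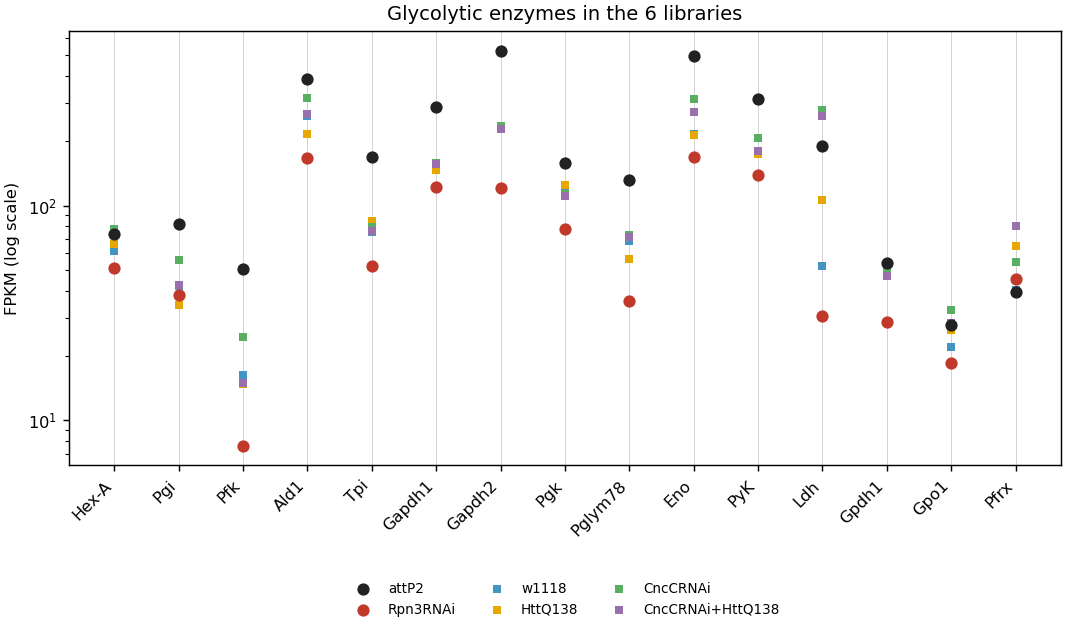
FPKM (y axis, log scale) of 15 glycolytic genes (x axis) in each of the 6 libraries, with large circles for attP2 and Rpn3RNAi and small squares for the other 4. Rpn3RNAi is the lowest point for 13 genes, attP2 is the highest for 11, and the other libraries lie between them for a gene such as Pfk, at 50.7 FPKM in attP2, 16.3 in w1118 and 7.62 in Rpn3RNAi, but not for Ldh, where CncCRNAi is at 277 and attP2 at 190.

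Genes that store and make sugar and fat were lower as well. Of 9 genes of glycogen, trehalose and gluconeogenesis 5 fell, with a median of -1.04, and 2 of the 6 at 10 FPKM in both libraries. Glycogen phosphorylase (Glyp), which releases glucose from glycogen, fell from 117 to 36.4 FPKM and glycogen synthase (Glys) from 24.7 to 8.23. Transcripts for both directions of glycogen turnover were thus lower, although Glys entered only through attP2 and turnover was not measured. The gluconeogenic enzyme Pepck1 fell from 32.9 to 5.86 FPKM, but its 5.44 in w1118 was no higher than in Rpn3RNAi. Trehalase (Treh) stood at 70.2 and 92.0 FPKM. Of 16 genes of fatty acid and triglyceride synthesis 5 fell and 1 rose. Fatty acid synthase (FASN1) fell from 143 to 69.4 FPKM, the desaturase Desat1 from 205 to 94.2, and Lipin (Lpin), which makes diacylglycerol, from 143 to 58.7 (2.43-fold, 2.22 to 2.66). Acetyl-CoA carboxylase (ACC) was just inside the fold used, at 41.4 against 20.2 FPKM, a ratio of FPKM + 1 of 2.002. CG8607 was just outside on the lower side at 1.999. On the higher side Fatp1, a fatty acid transporter, was just inside at 2.002 and Cyp6a20 just outside at 1.993. The only rise of the list was Seipin, a protein of lipid droplet formation, from 5.31 to 16.6 FPKM.

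The genes of the pentose phosphate branch moved less. Of 12 genes 1 fell, the epimerase Rpe from 28.1 to 12.5 FPKM, and the list's median was -0.37. Glucose-6-phosphate dehydrogenase (Zw), its first step, stood at 6.29 FPKM in attP2 against 10.3 in Rpn3RNAi. The malic enzymes Men and Men-b, which also yield NADPH, stood at 87.9 and 162 FPKM in attP2 and at 46.6 and 84.5 in Rpn3RNAi.

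Transcripts for mitochondrial oxidation were lower across a broad front, mostly by less than 2-fold per gene. Respiration itself was not measured. Of 91 genes listed for the respiratory complexes, 68 nuclear-encoded subunits entered, each at 10 FPKM or more in both libraries. All 68 had a log2 ratio below 0, with a median of -0.73, and Rpn3RNAi was the lowest of the 6 libraries for 67 of them. Of the 68, 8 passed 2-fold. The carrier cytochrome c (Cyt-c-p) fell from 248 to 87.2 FPKM (2.85-fold, 2.33 to 3.51), bellwether (blw), the alpha subunit of ATP synthase, from 588 to 262, and the cytochrome oxidase subunit COX7A from 521 to 216. The respiratory genes have a median level of 155 FPKM, where genes of that abundance had a median log2 ratio of -0.33. The list took up 2.49% of protein-coding FPKM in attP2, 1.55% in Rpn3RNAi and between 2.23% and 2.81% in the other 4 libraries.

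Transcripts for the steps that feed the respiratory chain were lower too. Of 24 genes of pyruvate oxidation and the TCA cycle 4 fell, with a median of -0.75, and Rpn3RNAi was the lowest library for 21. Pdha, the alpha subunit of pyruvate dehydrogenase, fell from 95.5 to 43.5 FPKM and was between 96.6 and 106 in the other 4 libraries. The pyruvate carrier Mpc1 fell from 46.4 to 21.4 FPKM. Mdh2, the mitochondrial malate dehydrogenase, lay at the fold used without passing it, with 309 FPKM in attP2 and 155 in Rpn3RNAi.

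Genes of fatty acid oxidation and of the breakdown of branched-chain amino acids, which share enzymes, showed the same direction. Of 25 genes of lipolysis and fatty acid oxidation 8 fell and 2 rose, with a median of -0.53. The dehydrogenase Mcad, the entry step for medium chains, fell from 249 to 92.2 FPKM (2.69-fold, 2.38 to 3.05), and Echs1, the enoyl-CoA hydratase, from 170 to 69.4, with 182 to 234 in the other 4 libraries. The exceptions were Acbp2, an acyl-CoA binding protein, which rose from 5.10 to 62.9 FPKM, and Acox57D-p, a peroxisomal oxidase, from 5.67 to 27.5. The 13 genes of branched-chain amino acid breakdown, a list put together after values were seen, included 7 that fell. Among them CG17896, the methylmalonate-semialdehyde dehydrogenase, fell from 176 to 40.0 FPKM (4.39-fold, 3.78 to 5.10), against 119 to 142 in the other 4 libraries, and Rpn3RNAi was the lowest library for 12 of the 13.

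Transcripts for import and folding inside mitochondria were lower as well. Of 34 genes 10 fell and none rose, with a median of -0.70, while against w1118 2 of the 34 were past 2-fold lower. The mitochondrial chaperonin Hsp60A, which folds imported proteins, fell from 216 to 35.6 FPKM (6.07-fold, 5.27 to 7.03). Its partner CG11267, the fly Hsp10, fell from 334 to 97.3 FPKM, and the matrix Hsp70 Hsc70-5 from 166 to 65.2. Both chaperonin partners were lower in Rpn3RNAi than in any other library, where Hsp60A ran from 138 to 277 FPKM and CG11267 from 281 to 501. The prohibitins Phb1 and Phb2 fell from 179 to 74.9 and from 333 to 122 FPKM, and the outer membrane channel porin from 914 to 438. Of 76 mitochondrial ribosomal proteins 5 fell and none rose, with a median of -0.45, and bonsai, the mitochondrial uS15 protein, was the lowest of them at 46.5 against 18.2 FPKM.

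**Figure D4:**
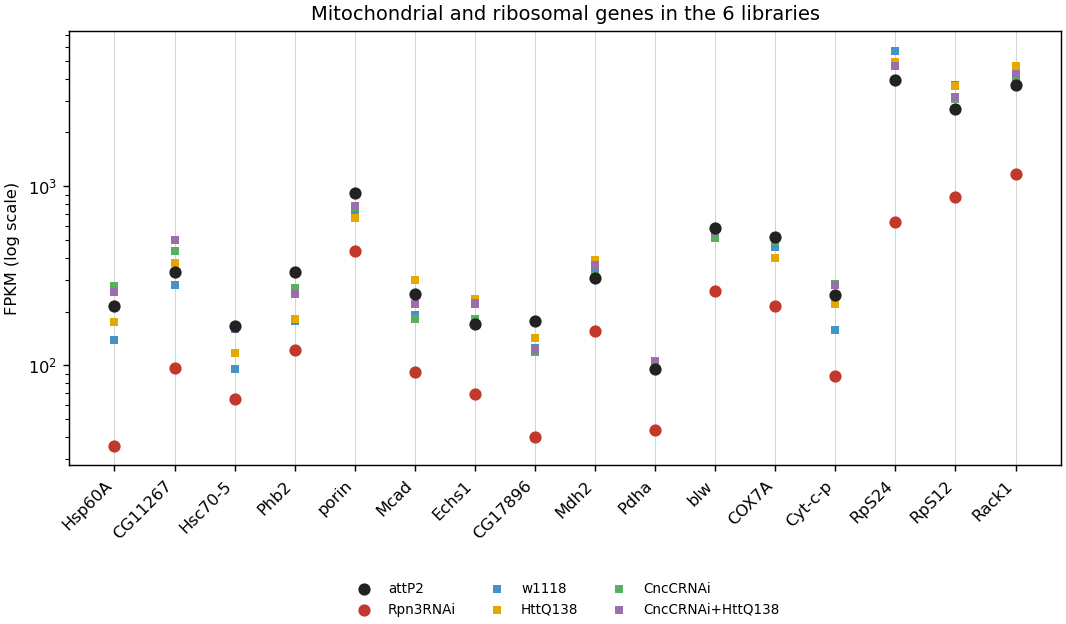
FPKM (y axis, log scale) of 13 mitochondrial genes, the ribosomal protein genes RpS24 and RpS12 and the ribosome-bound scaffold Rack1 (x axis) in each of the 6 libraries, with large circles for attP2 and Rpn3RNAi and small squares for the other 4. Rpn3RNAi is the lowest point for all 16 genes, for example 35.6 FPKM against 138 or more for Hsp60A and 634 against 3940 or more for RpS24. The 16 genes were picked as examples with earlier results of these data known. RpS24 and RpS12 are the only 2 of 81 ribosomal proteins past 2-fold. In the whole mitochondrial import list Rpn3RNAi is lowest for 19 of 34 genes.

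Genes of amino acid, nucleotide and heme synthesis moved unevenly. Of 15 genes of amino acid synthesis and one-carbon metabolism 2 rose and 6 fell. Among the 10 at 10 FPKM or more in both libraries 1 rose and 3 fell. The aspartate aminotransferases Got1 and Got2, which link amino acids to the TCA cycle, fell from 166 to 71.0 and from 187 to 73.9 FPKM, and asparagine synthetase (AsnS) from 33.1 to 9.30. AsnS was at 8.79 FPKM in w1118, so its fall rests on the level in attP2. P5CS, the first enzyme of proline synthesis from glutamate, rose from 4.51 to 26.5 FPKM and glutamate dehydrogenase (Gdh) from 11.5 to 29.4, with 15.1 and 21.2 in w1118. Of 24 nucleotide genes 5 fell, and 4 of the 21 at 10 FPKM or more in both libraries. RnrS, the small subunit of ribonucleotide reductase that makes DNA precursors, fell from 47.3 to 13.3 FPKM (3.57-fold, 2.64 to 4.90) and thymidylate synthase (Ts) from 10.7 to 3.05. In heme synthesis, a list of 7 genes added after values were seen, ferrochelatase (FeCH), the last step, fell from 130 to 38.7 FPKM and Pbgs, the second step, from 37.3 to 15.5, while the first step, Alas, stood at 52.8 and 68.4. FeCH and Pbgs stood at 44.6 and 10.9 FPKM in w1118.

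Among genes of cell growth, few passed 2-fold. The 81 cytosolic ribosomal proteins, which made up 45.5% of protein-coding FPKM in attP2, made up 41.6% in Rpn3RNAi and 55.0% in w1118. Their median log2 ratio was -0.26, beside -0.33 for the other 28 genes above 1000 FPKM, and 79 of the 81 lay within 2-fold. RpS24 fell from 3940 to 634 FPKM (6.22-fold, 5.79 to 6.68) and RpS12 from 2695 to 869 (3.10-fold, 2.90 to 3.32), both proteins of the small subunit. In the other 4 libraries RpS24 lay between 4711 and 5700 FPKM and RpS12 between 3083 and 3699. Rack1, a scaffold on the small subunit that is not in the list and was chosen after its values were seen, fell from 3684 to 1165 FPKM, with 4020 to 4713 elsewhere. Of 36 ribosome biogenesis genes 1 fell, hoip, a protein of small nucleolar and spliceosomal particles, from 72.7 to 31.3 FPKM, and the list's median was -0.22.

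Translation factors lay at the median of genes of their abundance. Of 33 factors 1 fell, eIF1, which selects the start codon, from 421 to 174 FPKM. The list's median was -0.41 at a median level of 307 FPKM, beside -0.42 for all genes between 300 and 1000 FPKM. The elongation factor eEF1alpha1, among the most abundant transcripts, stood at 10075 FPKM in attP2, 6190 in Rpn3RNAi and 9333 in w1118. Of 20 cytosolic tRNA synthetases 4 fell, with a median of -0.70. AsnRS, the asparagine enzyme, fell from 237 to 57.8 FPKM (4.09-fold, 3.64 to 4.62), with 83.8 in w1118, and ValRS, the valine enzyme, from 61.5 to 25.9, with 23.2 in w1118. In attP2, 7 of the 20 synthetases were at least 2-fold above w1118, with a median of 0.88, and against w1118 Rpn3RNAi had a median of 0.11 with no gene past 2-fold.

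Few growth signalling genes passed 2-fold against attP2. Of 32 genes of the insulin, TOR and Myc list 1 fell and none rose, beside 5.04% and 8.81% of all genes. The median was -0.21, with 24 of the 32 below 0, beside -0.20 for all genes between 30 and 100 FPKM. Against w1118, 6 of 33 were at least 2-fold lower and 3 higher, with a median of -0.46, beside 5.43% and 11.7% of all genes. Myc, which drives ribosome production, stood at 52.3 FPKM in attP2 against 52.9 in Rpn3RNAi. The 1 fall against attP2 was charybde (chrb), an inhibitor of TOR, from 24.3 to 10.6 FPKM. Thor, the translation inhibitor 4E-BP, stood at 862 and 552 FPKM, and Rheb, an activator of TOR, at 62.5 and 35.3.

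Cell cycle and replication genes were few above 10 FPKM. Of 19 cell cycle genes 1 rose, the passenger complex protein borr from 4.17 to 15.5 FPKM, and none fell. Borr entered only through Rpn3RNAi, and none of the 16 at 10 FPKM or more in both libraries passed 2-fold. The cyclin-dependent kinase inhibitor dacapo (dap) stood at 32.5 FPKM in attP2 against 16.9 in Rpn3RNAi, and fzr, an activator of the anaphase promoting complex, at 45.5 and 22.5. Of 15 replication genes 2 fell, RnrS and the helicase subunit Mcm7, the latter from 14.6 to 4.55 FPKM. Mcm7 entered only through attP2, and 1 of the 10 genes at 10 FPKM or more in both libraries fell. The sliding clamp PCNA stood at 48.5 FPKM in attP2, 23.8 in Rpn3RNAi and 24.6 in w1118. Among chromatin and RNA genes near the lower end, the histone variant His2Av fell from 332 to 92.6 FPKM and the DNA-bending protein HmgD, chosen after its values were seen, from 233 to 69.7. Of 35 spliceosome genes 1 fell, the splicing factor B52, 3.12-fold (2.69 to 3.62) from 165 FPKM, with 162 to 202 in the other 4 libraries.

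None of the 14 ISC and EB markers that entered passed 2-fold of FPKM + 1 in either direction, and the 17 listed summed to 1240 FPKM in attP2 and 1145 in Rpn3RNAi. Escargot (esg), the transcription factor that marks these cells, stood at 325 FPKM in attP2 against 302 in Rpn3RNAi, and Sox21a, a regulator of EB differentiation, at 118 and 121. The lowest ratios were those of spdo, a Notch pathway gene, at 10.1 and 4.84 FPKM (2.09-fold, 1.32 to 3.43) and of the EGFR pathway factor pnt at 15.9 and 7.99 (1.99-fold, 1.51 to 2.66). The Notch target E(spl)mbeta-HLH stood at 910 and 1239 FPKM, and E(spl)m3-HLH at 312 and 320. Of 13 Notch genes 2 rose, both Enhancer of split genes of low level, E(spl)m8-HLH from 1.68 to 11.1 FPKM and E(spl)mgamma-HLH from 5.22 to 19.3. None of 12 Hippo genes, 26 JNK, p53 and apoptosis genes, 8 niche and stress ligands or 20 integrin and basement membrane genes passed 2-fold. In the JAK-STAT, EGFR and FGF list 2 of 20 fell, the FGF receptor breathless (btl) from 19.3 to 6.51 FPKM and the ETS repressor anterior open (aop) from 11.8 to 5.05. Both entered only through attP2, and none of the 16 at 10 FPKM or more in both libraries fell.

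Markers of other gut and body cells were measured beside these results. Of 19 enterocyte markers 16 entered and 5 rose, all of them digestive or uptake genes named for mature cells (Amy-p, Mal-A1, Vha100-4, Npc1b and mag), and the summed level of the 19 was 831 FPKM in attP2, 2161 in Rpn3RNAi and 540 to 927 in the other 4 libraries. The enterocyte transcription factors that reached 10 FPKM in either library did not share the rise. GATAe stood at 92.6 FPKM in attP2 against 58.1 in Rpn3RNAi, Hnf4 at 26.8 and 16.5, and caudal (cad) at 11.0 and 5.65. Under 10 FPKM in both libraries, the factor nub stood at 4.47 and 6.29 FPKM and lab at 2.56 and 1.24. Of the septate junction genes, mesh stood at 57.5 and 108 FPKM, Ssk at 108 and 83.2 and Tsp2A at 77.7 and 56.9. In a bulk library, more cells of a type cannot be told apart from more RNA of its genes per cell, and the part that enterocytes in the sort may have in the digestive genes was not tested. The 14 enteroendocrine markers summed to 152 FPKM in attP2, 270 in Rpn3RNAi and 516 in w1118, with pros at 0.535 and 0.697. All 13 of them other than NPF were higher in Rpn3RNAi than in attP2, and so was NPF itself, at 72.6 FPKM in attP2 and 106 in Rpn3RNAi.

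The fat body markers summed to 197 FPKM in attP2 and 584 in Rpn3RNAi, against 43.7 to 109 in the other 4 libraries. All 5 that entered rose, the yolk protein Yp1 from 75.9 to 225 FPKM, Yp2 from 49.4 to 134 and Yp3 from 51.6 to 163 among them. The yolk proteins are made by fat body and ovary, and the more restricted fat body genes Fbp1 and Lsp2 stood at 0.941 and 1.17 FPKM in attP2 and at 0.444 and 0.837 in Rpn3RNAi. Other fat body genes were higher, NLaz from 10.8 to 36.6 FPKM, Adh from 4.61 to 22.6 and apolpp from 0.274 to 1.57, and the part of fat body RNA in the results was not tested. Without Yp1 the 8 other ovary and germ line markers summed to 4.02 FPKM in attP2 and 4.95 in Rpn3RNAi. Of these, 3 were higher in Rpn3RNAi, 4 lower and 1, osk, listed at 0 in both libraries. The Malpighian tubule marker Best1 stood at 30.9 and 29.7 FPKM. The 6 other tubule markers were all higher in Rpn3RNAi, summing to 9.22 FPKM in attP2 and 32.9 in Rpn3RNAi, with Irk2 at 3.87 and 22.3. The part of RNA from these tissues was not tested. Visceral muscle and hemocyte markers summed to 475 and 131 FPKM in attP2 and to 315 and 125 in Rpn3RNAi, but these sums are nearly all Tm1 (466 and 292 FPKM) and crq (124 and 114). Without Tm1 the 11 other muscle markers summed to 9.48 FPKM in attP2 and 23 in Rpn3RNAi, 8 of them higher in Rpn3RNAi, with the muscle myosin Mhc at 0.596 and 1.05. Without crq the 7 other hemocyte markers summed to 7.44 and 11.4 FPKM.

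The choice of control divided the metabolic lists. The attP2 and w1118 libraries, which carry neither RNAi nor HttQ138 but differ in background and in days at 29 °C, were themselves apart, with 277 of 5406 genes at least 2-fold higher in attP2 (5.12%) and 129 lower (2.39%), and both are controls of Rpn3RNAi here, so the 2 comparisons share the Rpn3RNAi library. Against w1118, 669 of 5707 genes were higher in Rpn3RNAi (11.7%) and 310 lower (5.43%). Of the 501 genes that rose against attP2, 435 were also at least 2-fold above w1118 and 458 were above all 5 other libraries. Of the 287 that fell, 109 were also at least 2-fold below w1118, 254 were below w1118 by any amount and 236 were below all 5 other libraries. The respiratory list had a median of -0.70 against w1118 with 15 of 68 genes lower, the TCA list -0.59 with 3 of 24 lower, the import list -0.54 with 2 of 34 lower and 1 higher, and branched-chain breakdown -0.81 with 4 of 13 lower. Against attP2 the same lists had 8, 4, 10 and 7 lower genes. The tRNA synthetases, ER folding, glycogen and fatty acid synthesis had medians of 0.11, -0.08, -0.32 and -0.26 against w1118, where attP2 itself had 0.88, 0.57, 0.75 and 0.36. The ribosomal proteins went the other way, with -0.71 against w1118 and -0.44 in attP2 against w1118.

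**Figure D5:**
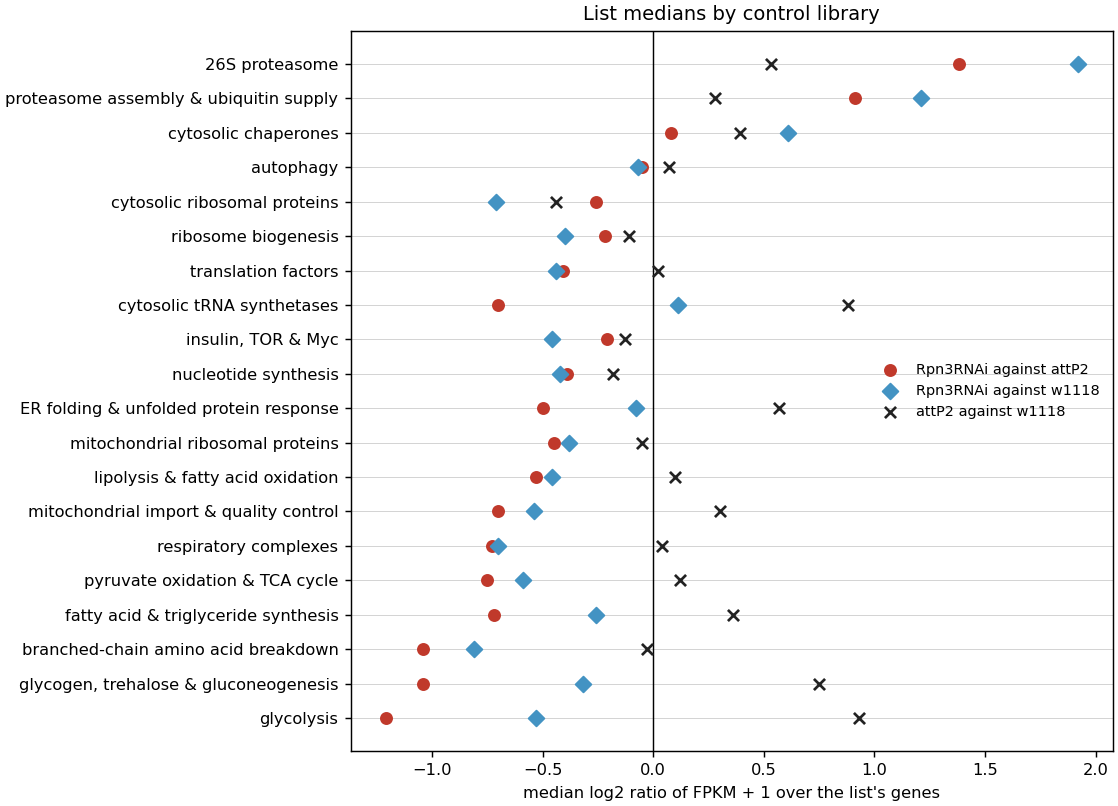
Median log2 ratio of FPKM + 1 (x axis) over the genes of 20 lists (y axis) for Rpn3RNAi against attP2 (circles), Rpn3RNAi against w1118 (diamonds) and attP2 against w1118 (crosses). The 2 Rpn3RNAi medians lie close together for the respiratory complexes, -0.73 and -0.70, and far apart for the tRNA synthetases, -0.70 and 0.11, and glycolysis, -1.21 and -0.53.

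HttQ138, an aggregating protein expressed for 2 days, is given beside Rpn3RNAi with its own control, w1118. Of 5354 genes 298 were at least 2-fold higher (5.57%) and 179 lower (3.34%). Its medians were -0.01 for glycolysis, 0.20 for the respiratory complexes, 0.00 for the TCA list and 0.02 for mitochondrial import, against -1.21, -0.73, -0.75 and -0.70 for Rpn3RNAi against attP2. Digestive lists were higher in HttQ138 as well, with 22 of 24 secreted serine proteases (median 2.19), 5 of 6 glycosidases (1.93), 8 of 10 other digestive proteases (1.93) and 5 of 7 peritrophic matrix and mucin genes (2.31) past 2-fold. These counts are raised in part by the floor, since a gene could enter through HttQ138 alone. Jon25Bii did so, at 3.99 FPKM in w1118 and 21.3 in HttQ138. Counts of genes at 10 FPKM in both libraries are not given for this comparison. The proteasome subunits had a median of 0.50 with 2 of 33 past 2-fold. The 2 comparisons differ in transgene, days at 29 °C and control, and their difference was not tested.

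At the ends of the ranking stood short or little-studied genes as well as the named families. The top 15 genes included 5 Jonah serine proteases and zetaTry, and the gene with the highest ratio, CG18404, reached 140 FPKM in Rpn3RNAi and was listed at 0 in attP2. The lowest was CG14545, at 60.8 FPKM in attP2 and 0.535 in Rpn3RNAi, but it was listed at 0 in w1118 and was at 3.91 or less in the other 3 libraries, so that attP2 is the library that stands apart. CG34212 and CG10936 were listed at 0 in Rpn3RNAi and at 25.9 and 24.5 FPKM in attP2, and also at 0 in w1118. In contrast CG10184 fell from 95.6 to 19.3 FPKM and Erasp from 112 to 24.2, with 107 and 111 in w1118.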

How the data were processed

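RNA from sorted escargot-positive cells was sequenced by the authors as 150 bp paired-end reads on a MiSeq and mapped to the fly genome (release 5.75) with the Tuxedo suite, whose versions are not given in the sources used here. The deposited values are FPKM per gene, 1 library for each of 6 genotypes, with no counts and no further scaling named. Symbols and biotypes came from Ensembl release 115 (BDGP6.54), with 14927 genes matched by identifier, 517 by symbol and 159 not matched. Small RNA symbols (856) and 117 other non-coding or unmatched entries at 10 FPKM or more were left out.

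Ratios were computed in Python 3.11.15 with pandas 2.3.3 as log2 of FPKM + 1 (pseudocount 1 FPKM), which understates the change of low genes. With 1 library a group no test was run. Fragments were estimated from the spacing of low FPKM values over 5476 single-transcript genes of 600 to 4000 nucleotides, less 160 nucleotides of length. Between 77.0% and 81.0% of these low values came out whole within 0.05 of a fragment. From the estimates, 95% Clopper-Pearson intervals on ratios were computed with SciPy 1.17.1, and the depth estimate and the 2-fold calls were checked on simulated data. The 5689 genes and 58 gene lists, 8 of whose entries had no match, were chosen with earlier results of these data known. Heme synthesis, branched-chain amino acid breakdown and the alkaline phosphatases were added after values were seen. Named genes are Rpn3, the 15 highest and 15 lowest ratios, the 2 highest and 2 lowest of each list, and further list members as examples of a role. Alternatives were other pseudocounts, floors, folds, scalings, gene sets and controls. Coordinates and sequences are not given here.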

Additional observations from a re-analysis of the deposited data

How the results depend on the processing

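With 1 library a group, leaving out a replicate was not possible, and no fit with a block could be made. No paired analysis was possible because no group has a second library. The counts of 501 higher and 287 lower genes became 1029 and 464 with no floor, and the higher count 299 at 30 FPKM or more and 170 with 10 FPKM in both libraries. Both rescalings left 191 lower genes, and at 3-fold 67 were lower. All 126 named genes past 2-fold kept their direction under both rescalings, 8 of them then under 2-fold, and with a pseudocount of 0.1 FPKM. With w1118 as the control 116 kept it, 27 of them under 2-fold, CG34212 and CG10936 were listed at 0 on both sides, and the log2 ratios of 8 turned, to -0.06 for MtnA, -0.64 for GstD4, 2.08 for GstE9, 0.48 for Pbgs, 0.15 for ValRS, 0.07 for AsnS, 0.09 for Pepck1 and 0.62 for CG14545.

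Among list medians, the glycosidases went from 3.76 to 2.95 with a pseudocount of 5 FPKM, 3.21 with no floor and 5.29 against w1118. The sugar transporters turned from 1.96 to -0.82 at 30 FPKM or more and -0.37 with 10 FPKM in both libraries, and the lipases and sterol genes from 2.60 to -0.39 in the latter. The ribosomal proteins went from -0.26 to -0.11 under both rescalings. Glycogen and gluconeogenesis went from -1.04 to -0.51 with no floor and to -0.68 under both stricter floors, fatty acid synthesis from -0.72 to -0.49 with no floor, and lipolysis and fatty acid oxidation from -0.53 to -0.92 at 30 FPKM or more. With w1118 as the control the medians were -0.71 for ribosomal proteins, 0.11 for tRNA synthetases, -0.26 for fatty acid synthesis, -0.32 for glycogen, -0.53 for glycolysis, 1.92 for the proteasome and 1.21 for its assembly list. With the mean of attP2, w1118 and CncCRNAi they were -0.49, -0.45, -0.47, -0.60, -0.85 and 1.76 in the same order, without the assembly list. The cause of these shifts was not tested. The fragment numbers behind the intervals are estimates.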
